A study of Rattus norvegicus with 44 samples.

Results

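Sham operated cortex was set against healthy cortex to ask what the operation alone, without occlusion of an artery, had left in the tissue after 24 h. The members were chosen by their labels and not by a measured value: the 4 arrays of ipsilateral sham cortex at 24 h and the 4 arrays of ipsilateral healthy cortex, 8 of the 44 arrays of the series. All rats were adult Sprague-Dawley rats, and each array carried labelled RNA pooled from 3 of them, so that an array stands for a pool and not for an animal. Sham rats had the same anaesthesia (ketamine, diazepam and atropine), the same analgesic (meloxicam) and the same surgery as the ischemic rats of the series, but without occlusion. The surgery opened the skull over the right middle cerebral artery. In the ischemic rats that artery was tied for good, and both common carotid arteries were occluded for a time. Healthy rats had no operation and are labelled 0h, so surgery, drugs and handling differ together between both groups and their parts cannot be told apart. Pools 5 to 8 were the sham rats of 24 h and pools 17 to 20 the healthy rats. The opposite (contralateral) cortex of pools 5 to 8 and the ipsilateral sham cortex at 3 d (pools 13 to 16), with 4 arrays each, were used to see whether a level was shared by both hemispheres or by both times. Pieces of whole cortex were taken, so fewer cells of a type and less RNA per cell cannot be told apart.

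Opening the skull exposes the meninges and often injures the surface of the cortex. Astrocytes answer injury by making intermediate filaments and a set of secreted and surface proteins, and microglia, vessels and meninges release chemokines, small proteins that draw neutrophils and monocytes out of the blood. Surgery and anaesthesia also raise adrenal glucocorticoids, which act on the whole brain through a receptor that switches on metallothioneins and other genes. A local response of the first kind can differ between hemispheres, and a systemic one reaches both, which is why the opposite cortex of the same rats is given for several genes.

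Values are log2 signal after quantile normalization, in arbitrary units, so a difference of 1 is a doubling. Of 41012 probes on the array, 30539 passed the filters on signal and were tested, and they covered 12097 genes with a symbol. The labelled tissue held its markers: all 12 tested genes of the neuron list and all 12 of the list of upper and deep cortical layers were well above background on each of the 8 arrays. The share of spots well above background was 65.4% to 77.7% on the sham arrays, the highest value of all 44 arrays being that of sham pool 8, and 66.7% to 73.5% on the healthy arrays. The strongest pattern within groups, 25.7% of their variance, went with the order of scanning: 18 of 20 arrays on the first 5 slides lay on one side of it and 20 of 24 on the last 6 slides on the other. Sham pool 6 and healthy pools 17 and 20 were in the first set, the other 5 arrays in the last, and only sham pool 8 and healthy pool 19 shared a slide. The part of the scan order in the results was not tested for single genes beyond the block. The within-set differences given here are values and not a test.

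No probe passed an adjusted p of 0.05 in sham against healthy cortex at 24 h, so 0% were called, and the lowest adjusted p in limma was 0.0841. At an unadjusted p below 0.05 there were 6780 probes, 22.2% of those tested, 2869 of them higher in sham cortex (9.39%) and 3911 lower (12.8%). With 1 probe for each gene, 24% of genes were under that limit, 5.32% higher and 18.7% lower, and the median difference over all genes was -0.11. The 4 sham arrays lay entirely above the 4 healthy arrays for 455 genes (3.76%) and entirely below them for 1754 (14.5%). Differences of at least 2-fold were found for 150 genes higher (1.24%) and 299 lower (2.47%), or 875 probes higher (2.87%) and 657 lower (2.15%). These shares depend on the scaling: scaled to the 75th percentile, 1878 probes were at least 2-fold higher and 246 lower, and 4307 and 3125 were higher and lower at an unadjusted p below 0.05. All counts of genes below are to be read against these shares.

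The 4 sham pools differed from each other in how far they lay from healthy cortex. Of all tested probes, 21.1% were at least 2-fold away from the healthy mean in pool 5, 12.2% in pool 6, 14.5% in pool 7 and 7.35% in pool 8. Each healthy array against the mean of the other 3 gave 8.23% to 11.5%, so that pool 8 lay no farther from healthy cortex than healthy arrays lay from each other. In the opposite cortex the shares were 27.2% in pool 5, 15.8% in pool 6, 7.48% in pool 7 and 7.90% in pool 8, and at 3 d they were 4.02% to 10.9%. Without pool 8 the same fit called 1368 probes (4.48%), 785 higher (2.57%) and 583 lower (1.91%), and 416 genes (3.44%), 102 of them higher (0.843%) and 314 lower (2.6%). Leaving out any other of the 8 arrays gave at most 1 called probe. Pool 8 was the sham array nearest to healthy cortex, so a call without it shows how far the calls rest on that array and is no support for a gene. Below, this call is stated for some genes only, so its absence does not mean that a gene was not called. The difference and p given for such a gene come from the fit with pool 8.

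**Figure D1:**
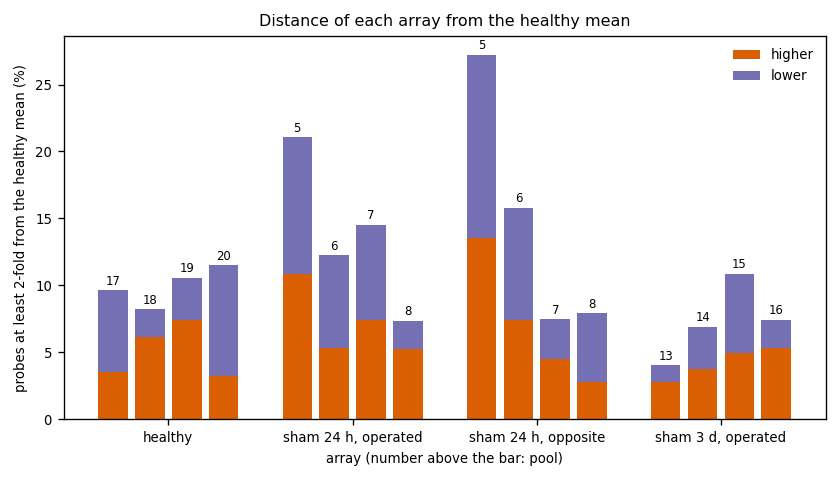
Percent of the 30539 tested probes at least 2-fold above or below the mean of the 4 healthy arrays (for a healthy array, the mean of the other 3), one stacked bar (higher and lower probes) for each array of healthy cortex, sham cortex at 24 h, the opposite cortex of the sham rats and sham cortex at 3 d. Sham pool 5 reached 21.1%, while sham pool 8, at 7.35%, lay below the range of the healthy arrays, 8.23% to 11.5%.

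Among the largest increases were genes of reactive astrocytes and of the acute response to injury. Serpina3n, a secreted protease inhibitor and a standard marker of reactive astrocytes, stood at 8.54, 6.96, 5.11 and 6.01 in sham pools 5 to 8. In healthy pools 17 to 20 it stood at 2.57, 3.86, 3.79 and 2.49, and in the opposite cortex of pools 5 to 8 at 3.17, 2.50, 3.45 and 2.67. Every operated cortex lay above every healthy and every opposite cortex, and pools 5 and 6 were the highest. The difference from healthy cortex was 3.48 (SE 0.81), or 11.2-fold, with an unadjusted p of 0.000135 and an adjusted p of 0.0841 in limma, although only 2 of 4 healthy arrays were well above background. With background correction by normexp and an offset of 50, which draws low signals together, the difference was 1.22. The gene was called without pool 8.

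The promoter of Serpina3n is printed because this gene separated the operated side from both references. It is given 5′ to 3′ for the 250 bases before the start site, from RefSeq on build GRCr8, chr6:129088142-129088391, plus strand. Capitals mark the match to TTCNNNGAA, the core letters that STAT factors bind, searched on both strands.
Serpina3n: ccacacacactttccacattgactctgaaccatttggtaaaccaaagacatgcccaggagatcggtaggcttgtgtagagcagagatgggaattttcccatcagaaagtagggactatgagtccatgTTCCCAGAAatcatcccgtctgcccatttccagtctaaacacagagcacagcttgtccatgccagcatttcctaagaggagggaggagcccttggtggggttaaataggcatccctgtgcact
The match begins 123 bases before the start site. The same letters were in 7.67% of 33469 promoters of this length. Counted by gene, with a match in any of its promoters, they were in 8.19% of 27457 genes. They were in 4 of the 22 reactive astrocyte genes with a promoter in the table: Emp1, Serpina3n, Sphk1 and Steap4.

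Lcn2, which encodes the iron-carrier binding protein lipocalin 2 made by reactive astrocytes and neutrophils, stood at 7.98, 7.82, 5.38 and 6.20 in the sham pools against 4.42, 3.93, 4.16 and 4.49 in the healthy ones. The groups did not overlap, and pool 7 was the lowest sham pool. The difference was 2.59 (SE 0.59), 6.04-fold, with an unadjusted p of 8.7e-05 and an adjusted p of 0.0841. Timp1, an inhibitor of matrix metalloproteinases, stood at 12.89, 10.81, 9.86 and 9.70 against 8.75, 9.08, 8.63 and 8.88. All sham pools were again above all healthy pools, pool 5 by the most, and the mean was 3.95-fold higher (unadjusted p = 0.00321). Spp1, which encodes osteopontin, stood at 8.91, 8.26, 8.02 and 5.94 against 5.05, 4.75, 4.83 and 5.15, a 7.14-fold difference (unadjusted p = 0.00763). Pools 5, 6 and 7 were close together for this gene and pool 8 was nearer to healthy cortex. Lcn2, Timp1 and Spp1 were all called without pool 8. With normexp the differences were 1.04 for Lcn2 and 1.57 for Spp1.

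Gfap, the intermediate filament protein that defines reactive astrocytes, had several probes of different signal. The probe of highest signal gave 9.67, 8.92, 8.73 and 9.12 in sham cortex and 7.96, 8.51, 8.48 and 8.48 in healthy cortex. These groups did not overlap either, but the difference of 0.75 (1.69-fold) had an unadjusted p of 0.0762. In the opposite cortex the same probe gave 7.22, 6.72, 8.51 and 8.24, so that pools 5 and 6 were below every healthy array there. Another probe for Gfap was higher by 1.26 in sham cortex (unadjusted p = 0.00175) and was called without pool 8.

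The reactive astrocyte list held 23 genes, all tested, with a median difference of 0.33 (0.15 with normexp) against -0.11 over all genes. At an unadjusted p below 0.05, 9 were higher in sham cortex and 1 was lower, where the shares over all genes were 5.32% and 18.7%. Entirely above healthy cortex lay 8 genes of the list and 3.76% of all genes. The gene that was lower was Ggta1, a galactosyltransferase, 3.03-fold (named after its value was seen). Beside the genes above, Aspg, an asparaginase of reactive astrocytes, was 2.36-fold higher (unadjusted p = 0.00486, called without pool 8). Cd44, the hyaluronan receptor, stood at 7.85, 7.22, 6.07 and 5.67 against 5.60, 5.51, 5.00 and 5.83, so pool 7 lay just above the healthy range and pool 8 inside it. Hspb1, a small heat shock protein of the same list, stood at 11.24, 10.23, 9.22 and 8.89 against 8.87, 8.25, 8.67 and 8.64, with its lowest sham pool just above the highest healthy one. S100a6 was 1.79-fold higher (unadjusted p = 0.0333), and Lgals3, the galectin of activated phagocytes, 2.69-fold higher without overlap (unadjusted p = 0.029). Reg3b, a secreted lectin, stood at 5.21, 3.92, 4.64 and 4.47 against 3.72, 3.22, 2.43 and 1.69. It was 3.47-fold higher (unadjusted p = 0.0103), and for this gene pool 8 was not the lowest. Over all settings of processing the smallest log2 difference of Reg3b was 0.29. Of the general astrocyte markers, 12 in number, none was higher at an unadjusted p below 0.05 by its probe of highest signal, and 1, the glutamate transporter Slc1a3, was lower by 1.49-fold.

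**Figure D2:**
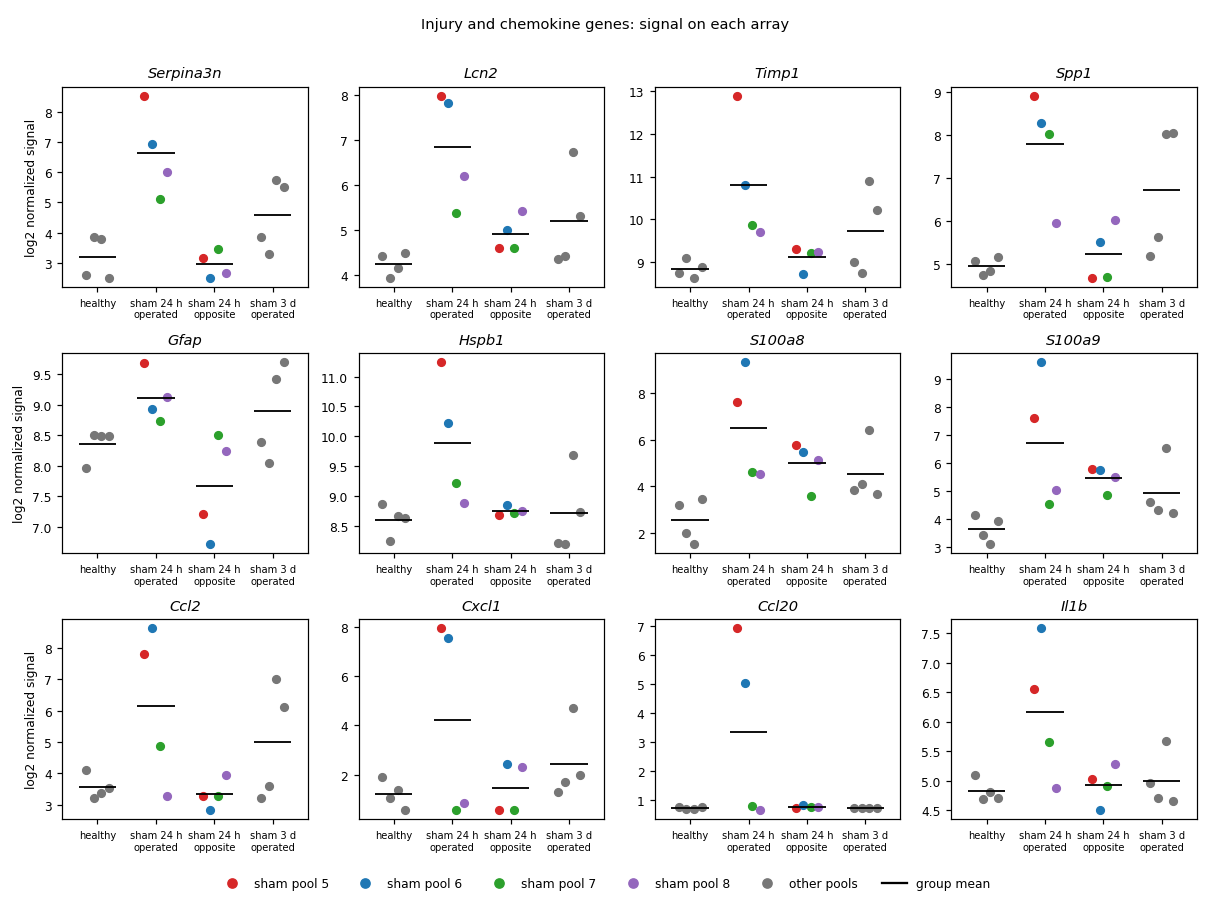
Log2 signal of injury and chemokine genes, one point for each array, coloured by sham pool, in healthy cortex, sham cortex at 24 h, the opposite cortex of the same rats and sham cortex at 3 d, with the group mean as a line. For Serpina3n the 4 sham arrays, 5.11 to 8.54, lie above all healthy arrays, 2.49 to 3.86, and above the opposite cortex, 2.50 to 3.45.

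Several chemokines were high in pools 5 and 6 and nearer to healthy cortex in pools 7 and 8. Cxcl1, which draws neutrophils, stood at 7.96, 7.54, 0.55 and 0.84 in the sham pools and at 1.91, 1.04, 1.38 and 0.57 in the healthy ones. Pools 5 and 6 were the only ones of these 8 arrays well above background, and the mean of the sham group was at least 2.93-fold higher (fitted difference 3.00, unadjusted p = 0.0165). Ccl2, which draws monocytes, stood at 7.80, 8.64, 4.88 and 3.29 against 4.10, 3.20, 3.37 and 3.54. Here pool 7 was also above the healthy range and pool 8 was within it, and the mean difference was 2.60, or 6.05-fold (unadjusted p = 0.0202). Ccl20, which draws cells that carry the receptor CCR6, stood at 6.93, 5.03, 0.80 and 0.63 in sham cortex and at 0.66 to 0.76 in healthy cortex, at least 1.6-fold higher. Its signal was well above background on 2 sham arrays and on 0 healthy and 0 opposite ones. Cxcl2, a close relative of Cxcl1, stood at 3.84, 5.84, 1.84 and 2.77 against 0.83, 1.87, 2.61 and 0.81, so that pool 8 was just above the healthy range and pool 7 inside it (unadjusted p = 0.0188).

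The promoters of Cxcl1, Cxcl2 and Ccl20 are shown as examples of chemokine genes that were highest in pools 5 and 6. All of those shown hold the match marked here. Cxcl10 and Cxcl11, of the same list, had a promoter without this match and are not shown. Each is the 250 bases before the start site, 5′ to 3′, from RefSeq on build GRCr8: Cxcl1 at chr14:17479322-17479571 on the minus strand, Cxcl2 at chr14:17467256-17467505 on the minus strand and Ccl20 at chr9:91836909-91837158 on the plus strand. Capitals mark matches on either strand to the letters GGG, any 2 bases and TTTCC, which NF-kappaB binds.
Cxcl1: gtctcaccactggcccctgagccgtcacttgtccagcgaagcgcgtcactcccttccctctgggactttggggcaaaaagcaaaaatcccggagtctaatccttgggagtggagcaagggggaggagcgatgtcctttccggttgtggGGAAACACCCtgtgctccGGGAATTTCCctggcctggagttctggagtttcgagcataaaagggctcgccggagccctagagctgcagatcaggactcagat
Cxcl2: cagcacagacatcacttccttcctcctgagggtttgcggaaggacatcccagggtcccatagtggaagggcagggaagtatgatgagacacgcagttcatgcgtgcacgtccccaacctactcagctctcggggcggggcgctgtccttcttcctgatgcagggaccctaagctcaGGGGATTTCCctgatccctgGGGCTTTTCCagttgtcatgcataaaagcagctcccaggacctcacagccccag
Ccl20: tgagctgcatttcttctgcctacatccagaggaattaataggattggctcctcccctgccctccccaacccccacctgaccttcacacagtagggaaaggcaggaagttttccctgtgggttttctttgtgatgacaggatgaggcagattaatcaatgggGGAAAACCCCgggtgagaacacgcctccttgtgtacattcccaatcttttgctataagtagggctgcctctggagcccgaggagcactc
The matches begin 102 and 84 bases before the start site in Cxcl1, 74 and 54 in Cxcl2, and 89 in Ccl20. These letters were in 1.3% of 33469 promoters of the same length and, counted by gene, in 1.37% of 27457 genes. They were in 5 of the 17 genes of the cytokine and chemokine list that had a promoter in the table: Ccl20, Cxcl1, Cxcl2, Il1rn and Il6. TGANTCA, bound by AP-1, was in 4 of the 17 and in 6.99% of all genes. TTGCNNAA, bound by C/EBP, was in 4 and 9.99%, and TTCNNNGAA in 1 and 8.19%. These letters are a description of the windows and not evidence of binding.

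Of the cytokine and chemokine list, all 23 genes were tested, 6 were higher at an unadjusted p below 0.05 and 0 were lower, with a median difference of 0.41 (0.59 scaled to the 75th percentile and 0.19 with normexp). None of the 23 had groups without overlap, and 5 were called without pool 8, all higher. Over all genes 5.32% were higher and 18.7% lower at that limit. Entirely above healthy cortex lay 3.76% of all genes, and 0.843% were called higher without pool 8. Il1b, the cytokine interleukin 1 beta, stood at 6.56, 7.59, 5.65 and 4.88 against 4.69 to 5.09, with pools 5 to 7 above and pool 8 inside the healthy range. Cxcl11, a chemokine for T cells, was at least 1.71-fold higher, with signal well above background on 2 sham and 0 healthy arrays. Cxcl10, of the same family, stood at 4.99, 6.39, 4.83 and 2.61 against 2.64 to 3.79, and in pool 8 it was just below every healthy array (unadjusted p = 0.0504).

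S100a8 and S100a9, which together form calprotectin and are abundant in neutrophils, were higher in sham cortex in every pool. S100a8 stood at 7.61, 9.34, 4.61 and 4.51 in sham cortex and at 3.17, 2.01, 1.51 and 3.46 in healthy cortex. Sham and healthy pools did not overlap, and the difference was 3.98 (SE 0.99), 15.8-fold, with an unadjusted p of 0.000293 and 2 of 4 healthy arrays well above background. In the opposite cortex S100a8 stood at 5.78, 5.48, 3.59 and 5.14, also above every healthy array. S100a9 was 8.29-fold higher (unadjusted p = 0.00152), and both genes were called without pool 8. With normexp the differences were 1.39 for S100a8 and 1.28 for S100a9.

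Other neutrophil markers were closer to healthy cortex. Of the 9 tested genes of that list, 3 were higher at an unadjusted p below 0.05, namely S100a8, S100a9 and Lcn2, and 0 were lower, with a median of 0.40 (0.68 scaled to the 75th percentile and 0.10 with normexp). The shares over all genes were 5.32% higher and 18.7% lower. The summed linear signal of the whole list was 163 to 1847 in sham cortex, 99.6 to 138 in healthy cortex and 127 to 213 in opposite cortex. This sum includes S100a8, S100a9 and Lcn2 and is no value for the other markers. Cxcr2, the receptor for Cxcl1 and Cxcl2 on neutrophils, was well above background on 0 of the 8 arrays, and Elane, a neutrophil protease, on 1 of 4 in each group. The part of blood or infiltrating cells in these values was not tested beyond that. The 5 tested erythroid markers had a median difference of 0.50, 3 of them higher without overlap and 0 under an unadjusted p of 0.05, with a summed linear signal of 16893 to 28399 in sham and 14043 to 15447 in healthy cortex. Of all genes 3.76% were higher without overlap. Hbb-b1, a haemoglobin chain, was higher by 0.59 (unadjusted p = 0.133), and the 4 arrays of the opposite cortex, 13.97 to 14.74, were above the healthy ones too. Ttr, the thyroxine carrier of the choroid plexus, stood at 3.68, 11.74, 0.51 and 4.97 in sham cortex against 3.89 to 6.53 in healthy cortex, so that pool 6 stood far above all others. The summed signal of the choroid plexus list, which includes Ttr and its high value in pool 6, was 488 to 4032 in sham cortex and 365 to 498 in healthy cortex.

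The operated side was then compared with the opposite side of the same rats, which leaves the healthy arrays out of the difference. Serpina3n, Lcn2, Timp1, Spp1, Hspb1, Ccl2 and Cxcl1 were named because these same operated arrays were high against healthy cortex. A higher operated side was therefore partly fixed in advance for such genes, and their intervals and p values are no independent support. The intervals and p values of this contrast, here and below, come from the fit of group means over all 44 arrays. That fit takes no account of the pairing of both sides in the same rats. Of all tested probes 1.78% were under an unadjusted p of 0.05, 202 probes higher on the operated side (0.661%), 1.11% were at least 2-fold higher there and 0.557% at least 2-fold lower, and 1 probe (0.00327%), which has no gene name, was called. Serpina3n was higher on the operated side by 3.71 (95% interval 2.06 to 5.36, unadjusted p = 5.81e-05, adjusted p = 0.355). Both Gfap probes were higher there, by 1.44 (0.60 to 2.28) and by 1.76 (1.00 to 2.51, unadjusted p = 3.4e-05, adjusted p = 0.347). For the probe of highest signal, with 1.44, part of the difference lay in the opposite cortex, where pools 5 and 6 were below every healthy array. Ccl2 was higher by 2.83 (0.66 to 4.99), Lcn2 by 1.94 (0.75 to 3.13), Timp1 by 1.70 (0.43 to 2.97), Spp1 by 2.57 (0.53 to 4.60) and Hspb1 by 1.14 (0.06 to 2.23). For Cxcl1, Ccl20 and Cxcl2 no opposite array was well above background, and the operated side was at least 2.53-fold, 1.38-fold and 1.61-fold higher. The interval of Cd44, -0.20 to 2.12, included 0. For S100a8 the interval of the difference between sides, -0.49 to 3.53, included 0. Of the 23 reactive astrocyte genes 6 were higher on the operated side at an unadjusted p below 0.05 and 1 was lower, and of the 23 cytokines and chemokines 5 were higher and 0 lower. None of these genes was called in this contrast. With the pool as a fixed block, fitted over only the sham arrays of 24 h, the count of called probes was 0.

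For a further group of genes the opposite cortex also stood apart from healthy cortex. Sult1a1, a sulfotransferase that glucocorticoids induce, stood at 9.70, 10.07, 9.96 and 10.10 in the sham pools against 8.89, 8.91, 8.99 and 8.97 in the healthy ones. The 4 sham arrays were close to each other, pool 8 included, and lay well above healthy cortex, by 1.02 (SE 0.26) or 2.02-fold (unadjusted p = 0.000484). In the opposite cortex Sult1a1 stood at 9.82, 10.33, 10.16 and 10.42. The operated side minus the opposite side was -0.23, with an interval of -0.76 to 0.31. Mt2A, a metallothionein that binds zinc and copper, was 1.95-fold higher without overlap (unadjusted p = 0.0112), and Mt1 1.78-fold (unadjusted p = 0.0438). The opposite cortex stood at 10.66 to 11.40 for Mt2A and at 10.18 to 11.14 for Mt1, above the healthy maxima of 10.63 and 10.02.

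Of the glucocorticoid response list 16 genes were tested, 8 were higher at an unadjusted p below 0.05 and 1 was lower, with a median of 0.35. Over all genes 5.32% were higher and 18.7% lower, and the median was -0.11. Tsc22d3, which encodes the glucocorticoid-induced leucine zipper GILZ, stood at 12.41, 12.57, 12.28 and 12.18 against 12.05, 12.01, 11.85 and 11.90. These narrow groups did not overlap, and the difference was 0.41 (unadjusted p = 0.00413), while the interval of the operated minus the opposite side ran from -0.27 to 0.27. Zbtb16, a zinc finger repressor, was 1.64-fold higher (unadjusted p = 0.00742), Map3k6 1.86-fold (unadjusted p = 0.0469) and Fkbp5, the chaperone of the glucocorticoid receptor, 1.27-fold (unadjusted p = 0.0445). Ddit4, an inhibitor of mTOR that this list also holds, went the other way, at 7.01, 8.26, 7.38 and 7.93 against 8.32 to 8.90, or 1.84-fold lower (unadjusted p = 0.00637). The list also holds Lcn2, which differed between the sides. Fgf2, a growth factor of astrocytes, was 1.66-fold higher without overlap (unadjusted p = 0.00361) and differed by 0.13 between the sides (interval -0.35 to 0.60).

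Some clock genes differed from healthy cortex. The time of day of death was not in the sources used here. Dbp, an output gene of the clock, stood at 12.19, 12.08, 11.98 and 11.60 in sham and at 11.42, 11.07, 11.05 and 11.38 in healthy cortex. The difference of 0.73 (1.66-fold) was without overlap, with an unadjusted p of 0.00653. Nfil3, a repressor that binds the same sites as Dbp, stood at 6.81, 7.30, 6.93 and 7.28 against 8.11, 8.03, 7.95 and 8.09, so it lay lower in every sham pool, 1.95-fold on average (unadjusted p = 0.00163). Cry2, a repressor of the core clock, was 1.53-fold lower without overlap (unadjusted p = 0.0029). Per2 was 1.44-fold higher (unadjusted p = 0.0184), while Bmal1 and Clock, the paired activators, were 1.28-fold and 1.52-fold lower with overlapping groups. Over the 17 tested clock genes 2 were higher and 4 lower at an unadjusted p below 0.05, with a median of -0.11, which is also the median of all genes, and the share that was lower was near that of all genes. In the opposite cortex Dbp stood at 12.30, 12.26, 12.13 and 11.46 and Nfil3 at 6.72, 7.23, 7.26 and 7.72, each outside the healthy range in all 4 pools. Nfil3 was the 1 clock gene called without pool 8.

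**Figure D3:**
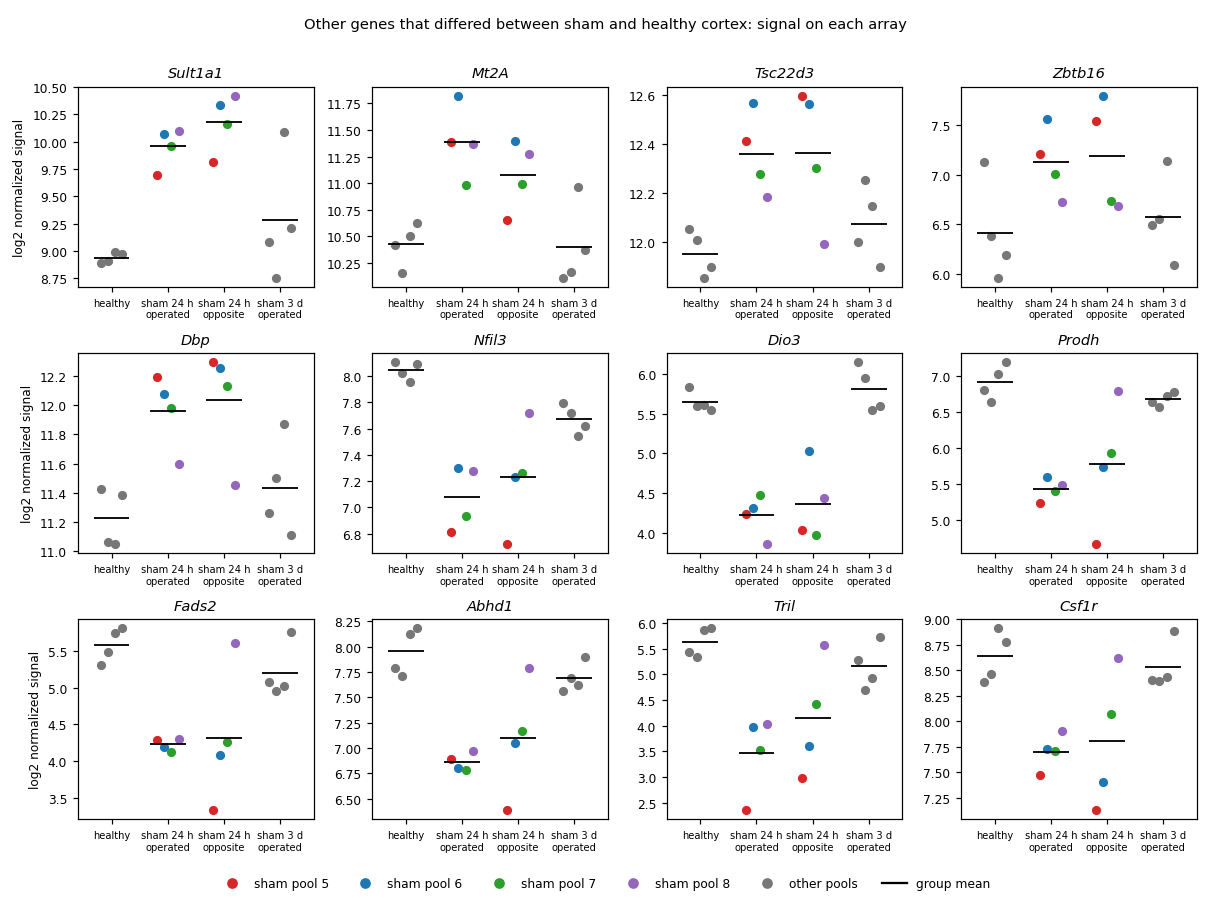
Log2 signal of other genes whose sham and healthy arrays differed, with the opposite cortex beside them, one point for each array, coloured by sham pool, in healthy cortex, sham cortex at 24 h, the opposite cortex of the same rats and sham cortex at 3 d, with the group mean as a line. Sult1a1 lies at 9.70 to 10.10 in sham and at 8.89 to 8.99 in healthy cortex, and Nfil3 at 6.81 to 7.30 against 7.95 to 8.11.

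The 5 smallest unadjusted p values among the genes named here belonged to genes lower in sham cortex. Tril, an accessory protein of toll-like receptors in astrocytes, stood at 2.35, 3.97, 3.53 and 4.03 against 5.43, 5.35, 5.87 and 5.90. All sham pools were well below all healthy pools, with a difference of -2.17 or 4.49-fold (SE 0.42, unadjusted p = 9.1e-06, adjusted p = 0.0841). Its opposite cortex stood at 2.98, 3.60, 4.42 and 5.57, low in pools 5 to 7 and at the healthy level in pool 8. Abhd1, a hydrolase-fold protein, stood at 6.89, 6.80, 6.78 and 6.97 against 7.79, 7.71, 8.13 and 8.18, with all 4 sham pools within a narrow range, and was 2.14-fold lower (unadjusted p = 1.27e-05). Fads2, the desaturase that begins the making of long polyunsaturated fatty acids, stood at 4.29, 4.20, 4.12 and 4.30 against 5.30, 5.49, 5.74 and 5.81. It was 2.57-fold lower (unadjusted p = 4.28e-05), with 3.33, 4.08, 4.26 and 5.60 in the opposite cortex, where pool 8 again reached the healthy level. Recql, a DNA helicase, was 1.7-fold lower (unadjusted p = 1.76e-05), and Mfsd2a, the carrier that takes omega-3 lipids across the endothelium of the brain, 2.38-fold lower (unadjusted p = 5.8e-05). Tril, Abhd1, Fads2, Recql and Mfsd2a were each called or, for Recql at less than 2-fold, under an adjusted p of 0.05 without pool 8. With normexp the difference of Tril was -0.51. Over all settings of processing the smallest log2 difference of Mfsd2a was -0.48.

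Dio3, the deiodinase that inactivates thyroid hormone, stood at 4.24, 4.31, 4.48 and 3.86 against 5.84, 5.60, 5.61 and 5.55. The 8 arrays formed a lower and a higher group with a wide gap, 2.7-fold apart (unadjusted p = 0.00414), and the opposite cortex, at 3.97 to 5.03, also lay below healthy cortex. Prodh, proline dehydrogenase, stood at 5.23, 5.59, 5.40 and 5.48 against 6.80, 6.63, 7.03 and 7.19 and was 2.8-fold lower (unadjusted p = 0.000543). Mmd2 was 3.18-fold lower (unadjusted p = 0.000178), Hrh1, the histamine H1 receptor, 2.93-fold, and Grap, an adaptor of receptor kinases, 3.03-fold. Fkbp9, Fbxl4, Trmt61a and Myorg were 2.68-fold, 2.73-fold, 2.94-fold and 2.62-fold lower, all without overlap. Over all settings of processing their smallest log2 differences were -0.37, -0.51, -0.52 and -0.33, and that of Dio3 was -0.46. Tmem123 was 5.13-fold lower (unadjusted p = 7.73e-05), but its signal was well above background on 1 of 4 sham arrays only, and with normexp the difference was -0.21. Gper1, a membrane receptor for oestrogen, was 3.67-fold lower with 1 of 4 sham arrays well above background. Zscan25 stood at 6.05, 5.87, 4.79 and 8.63 against 7.29 to 8.56, pool 8 lying above every healthy array.

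Many genes of cholesterol synthesis were lower in sham cortex. Of 17 tested genes 10 were lower at an unadjusted p below 0.05 and 0 higher, 2 of the other 7 had a positive difference and 0 of 17 were called without pool 8, with a median of -0.35, where 18.7% of all genes were lower and the median was -0.11. Fdps, farnesyl diphosphate synthase, stood at 10.90, 11.25, 10.92 and 11.29 against 11.64, 11.68, 11.85 and 11.57. Fdft1, squalene synthase, stood at 6.68, 7.38, 6.83 and 6.99 against 7.58 to 7.74, and Cyp51, the sterol demethylase, at 9.96 to 10.18 against 10.50 to 10.81. None of these genes had overlapping groups, pool 8 included, and the differences were 1.51-fold, 1.59-fold and 1.47-fold (unadjusted p 0.00137, 0.00152 and 0.00482). Sqle and Insig1 were 1.28-fold and 1.4-fold lower without overlap. The operated and the opposite side differed by a median of -0.06 over the list, and by 0 genes at an unadjusted p below 0.05.

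Several oligodendrocyte markers were lower too. Of 12 tested genes 4 were lower at an unadjusted p below 0.05 and 0 higher, with a median of -0.40. Over all genes 18.7% were lower and 5.32% higher. Ugt8, which makes the galactolipids of myelin, stood at 3.76, 5.15, 4.83 and 5.26 against 6.05, 5.84, 6.13 and 5.71, 2.27-fold lower (unadjusted p = 0.00221). Cnp was 1.63-fold lower without overlap. Olig2, the transcription factor of the lineage, stood at 4.22, 4.18, 4.29 and 5.41 against 4.75 to 5.83, with pool 8 inside the healthy range. Olig2 and Ugt8 were called without that pool. Over all settings of processing the smallest difference of Ugt8 was -0.34.

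Markers of microglia and of vessels were not higher. Of 19 tested microglia and macrophage genes 0 were higher and 2 lower at an unadjusted p below 0.05, with a median of -0.03. The genes that were lower were Csf1r, the receptor for colony stimulating factor 1, at 7.47, 7.73, 7.71 and 7.90 against 8.39 to 8.91, and Tmem119, at 1.34, 3.81, 3.00 and 3.43 against 4.13 to 4.83. Both were without overlap, 1.91-fold and 3.05-fold lower, and both were called without pool 8. Over all settings of processing the smallest log2 difference of Tmem119 was -0.28. Of 13 endothelial genes 3 were lower and 0 higher, Tek and Tie1, the angiopoietin receptor and its partner, by 1.8-fold and 1.75-fold without overlap, and Pecam1 by 1.88-fold with overlap. Over all genes 5.32% were higher and 18.7% lower at this limit, so neither count set these lists apart.

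Meningeal and fibroblast markers were lower in 5 of 18 tested genes and higher in 0 at an unadjusted p below 0.05, with a median of -0.31. The shares over all genes were 18.7% lower and 5.32% higher. Lum, a proteoglycan of the meninges, stood at 3.34, 2.94, 3.17 and 3.74 against 4.61, 4.58, 5.27 and 5.56, with 1 of 4 sham arrays well above background. Slc22a6, an organic anion carrier, and Igfbp2, a carrier of insulin-like growth factors, were 2.63-fold and 2.19-fold lower without overlap. Over all settings of processing the smallest log2 differences were -0.35 for Lum, -0.36 for Slc22a6 and -0.78 for Igfbp2. The summed linear signal of the list was 47527 to 82899 in sham and 74586 to 82149 in healthy cortex, so a wider range in sham cortex stood beside these values. How much of the meninges each piece of cortex held was not tested.

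Genes of neurons went both ways. Map2, of dendrites, and Syt1 and Cplx2, of the release of synaptic vesicles, were 1.82-fold, 1.82-fold and 2.1-fold higher (unadjusted p 0.00864, 0.0124 and 0.00949), and Pclo 1.33-fold without overlap. Of the 3 probes for Syt1, 1 had the opposite sign, and all 3 were under an unadjusted p of 0.05. Stx1a, another protein of release, and Slc17a7, the vesicular glutamate transporter of cortex, were 1.66-fold and 1.46-fold lower. Over the 12 tested neuron markers 2 were higher and 1 lower at an unadjusted p below 0.05, and over the 19 synaptic vesicle genes 3 and 2. Subunits of the respiratory chain also split, although 8 of 26 passed the filters: Cox5a and Ndufb3 were 2.16-fold and 1.86-fold higher, and Uqcrc1, Ndufs1, Atp5f1a and Atp5f1b were 2.06-fold, 2.23-fold, 1.93-fold and 1.65-fold lower. Of 14 tested genes of cytosolic ribosomal proteins 2 were higher and 2 lower, and Rpl37 was 2.1-fold higher without overlap.

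Some of the largest increases followed the pools on both sides. Rab3gap2, a regulator of Rab proteins, stood at 12.70, 10.21, 12.34 and 9.74 in sham cortex and at 13.45, 10.68, 11.69 and 7.29 in the opposite cortex, against 8.23 to 9.42 in healthy cortex. Pools 5 and 7 were the highest on both sides, and pool 8 was the lowest on both. Ocm, the calcium buffer oncomodulin, stood at 9.47, 7.21, 9.30 and 6.69 and at 10.44, 7.76, 8.33 and 6.00 against 6.39 to 6.53. Marcksl1 stood at 11.99, 10.55, 12.30 and 10.77 and at 12.22, 10.96, 11.60 and 9.11 against 9.89 to 10.42. Both genes were again highest in pools 5 and 7 on each side. Rab3gap2, Ocm and Marcksl1 were 5.21-fold, 3.23-fold and 2.49-fold higher on the operated side than in healthy cortex without overlap, and all were called without pool 8. Rpl37a and Ube3c were 2.5-fold and 2.45-fold higher (unadjusted p 0.000696 and 0.000997), although another probe for Ube3c had the opposite sign, and Rc3h2 1.6-fold (unadjusted p = 8.13e-05). Dpf3 and the uncharacterised LOC679894 were also among the 5 smallest unadjusted p values in this direction, Dpf3 at 5.28, 5.68, 6.19 and 3.95 against 3.65 to 4.03.

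Lists with few genes under the limit are given by count. At an unadjusted p below 0.05, higher and lower genes were 0 and 2 of 20 for the interferon response (Stat2, Ifi27), 1 and 1 of 16 for heat shock (Hspb1, Hspa8), 0 and 3 of 14 for hypoxia (Ldha, Ndrg1, Pdk1) and 2 and 1 of 24 for matrix and wound repair (Timp1 and Mmp14 among them). They were 0 and 1 of 17 for immediate early genes, where Dusp1, a phosphatase of MAP kinases, was 2.27-fold lower without overlap, and 0 and 0 of 18 for the cell cycle. Glutamate receptors had 2 and 0 of 21 (Gria4, Grm3, the latter with a probe of the opposite sign that was also under the limit), GABA receptors 0 and 0 of 14, and neurotrophic factors and receptors 2 and 1 of 15 (Fgf2, Gdnf, Ngfr). For pericytes and smooth muscle they were 0 and 1 of 9 (Rgs5), for lymphocytes 0 and 1 of 7 (Lck), for striatum 0 and 1 of 10 (Drd1), and for skeletal muscle 0 and 1 of 11 (Acta1). Oligodendrocyte precursors had 1 and 0 of 5 (Sox6, with a probe of the opposite sign that was also under the limit), layer markers 0 and 1 of 12 (Tle4), and interneuron peptides, hippocampus and choroid plexus 0 in each direction of 9, 6 and 8. Members outside the naming rule were named after their values were seen. The sign of the median of the astrocyte, microglia, lymphocyte, hippocampus, skeletal muscle, glutamate receptor and matrix lists depended on the scaling or background correction.

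**Figure D4:**
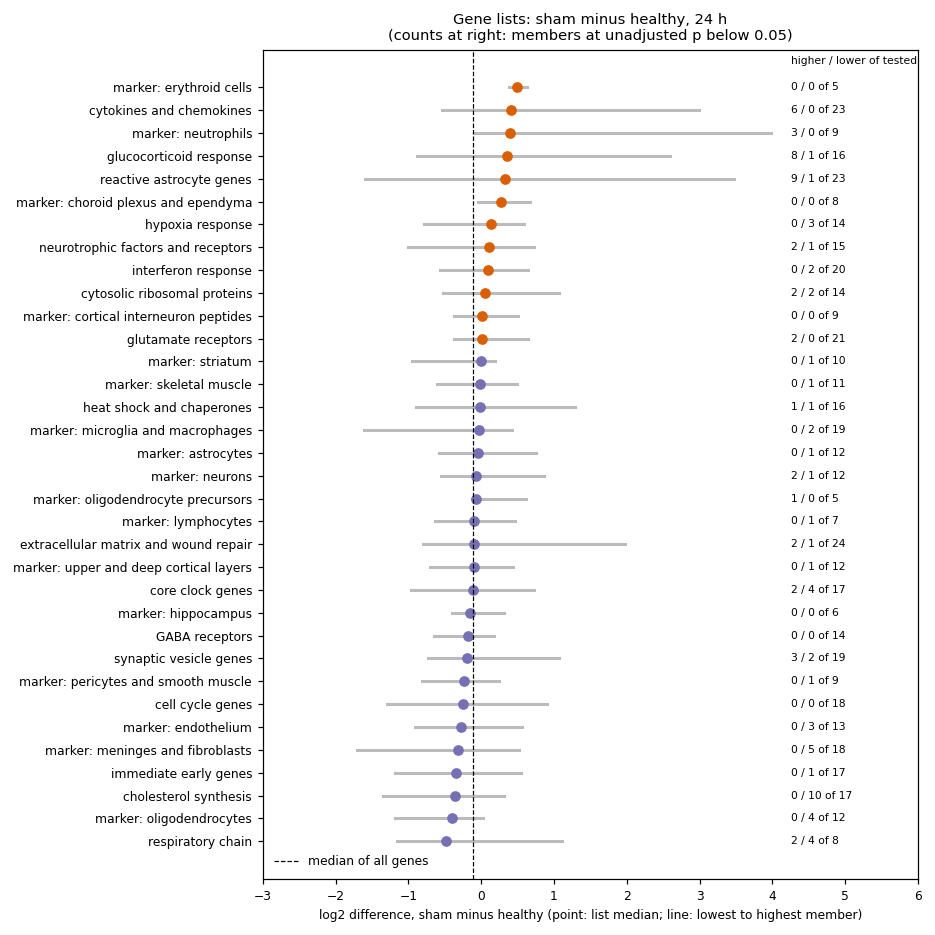
Difference in log2 signal between sham and healthy cortex at 24 h for each gene list: the point is the median of the tested genes, the grey line runs from the lowest to the highest, the dashed line is the median over all genes, -0.11, and the numbers at the right count genes at an unadjusted p below 0.05. The cytokine and chemokine list has a median of 0.41 and the cholesterol synthesis list one of -0.35.

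At 3 d the operated cortex of other sham rats was nearer to healthy cortex for some genes and not for others. Sham cortex at 24 h against 3 d gave 0% of probes called and 9.38% at an unadjusted p below 0.05. Serpina3n at 3 d stood at 3.86, 3.28, 5.73 and 5.50, with pools 15 and 16 well above the healthy range, and the level at 24 h minus that at 3 d was 2.06 (unadjusted p = 0.0157). Ccl20 was at 0.70 to 0.73 in all pools of 3 d, which is the level of healthy cortex. Ccl2 stood at 3.21, 3.59, 7.02 and 6.13, high in pools 15 and 16, and Spp1 at 5.17, 5.62, 8.02 and 8.04, high in the same pools. Dio3, at 5.55 to 6.16, was in the range of healthy cortex or just above it, and the level at 24 h minus that at 3 d was -1.60 (unadjusted p = 0.0016). The same difference was 0.84 for Per2 (unadjusted p = 0.000367) and -1.69 for Tril (unadjusted p = 0.000273).

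Of the 98 named probes, 97 kept the sign of their difference in the first scan set, all but Ttr, 98 in the last, and 90 on the slide shared by both groups. Probes were named by their difference on these same arrays, many with groups that do not overlap, where every subset keeps the sign. These counts were therefore largely fixed in advance and are no test of the scan order. For Serpina3n the difference was 4.43 in the first set (sham pool 6 against healthy pools 17 and 20) and 2.73 in the last (sham pools 5, 7 and 8 against healthy pools 18 and 19), and for Lcn2 3.37 and 2.47. For Tril it was -1.69 and -2.30, for Fads2 -1.36 and -1.38, for Abhd1 -1.19 and -1.04, and for Sult1a1 1.14 and 0.97. On the one slide that held both groups, sham pool 8 minus healthy pool 19 was 2.22 for Serpina3n, 2.04 for Lcn2, 1.11 for Sult1a1 and -1.84 for Tril, and -0.08 for Ccl2. With the scan set as a block, 7288 probes were under an unadjusted p of 0.05 and 0 were called. With the block and without pool 8, 1699 were called.

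**Figure D5:**
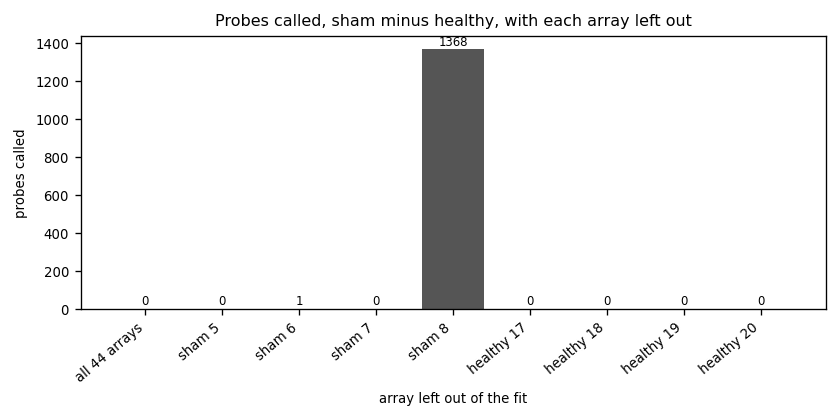
Number of probes called (adjusted p below 0.05 and at least 2-fold) in sham against healthy cortex at 24 h, in the fit with all arrays and with each of the 8 arrays left out in turn. Without sham pool 8 there are 1368 called probes, and without any other array at most 1.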

How the data were processed

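Signal intensities of 44 one-colour arrays were deposited by the authors as the output of Agilent Feature Extraction (version 10.7.3.1), in which, per the file headers, background had been subtracted and spatial trends removed but arrays not brought to a common scale. A second deposited file, with log2 values after a threshold of 1 and quantile normalization, served as an alternative. Deposited flags for each spot mark it as above background, saturated or uneven, and are used here as scores of 0 or 1.

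Signals were set to at least 1, log2 transformed and quantile normalized over 44 arrays. Uneven and outlier spots were set to missing and spots of a probe averaged. A probe was kept if above the 20th percentile and above background in 75% of a group's arrays, with a coefficient of variation above 2.5%. Above background in this filter is the flag for positive and significant signal, which is not the flag for well above background used elsewhere. Of 41012 probes, 19317 had a symbol, 16815 through their accession in RefSeq (GRCr8) and 2502 through the study's tables. Groups were compared with limma 3.58.1 in R 4.3.3, fitted on all 44 arrays with 33 residual degrees of freedom, with Benjamini-Hochberg adjustment over 30539 probes. A call needed an adjusted p below 0.05 and a 2-fold difference. Pools are separate rats, and their number, 4 per group, limits the precision. "At least" folds set the bright group's mean against the lowest signal well above background.

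Genes were named if they had the 12 largest increases or decreases without overlap and well above background on 3 arrays of each group, the 5 smallest p in each direction, the 5 largest increases or decreases called without pool 8, or the 3 largest changes in a list. A gene in a list was given by its probe of highest signal. A few of these genes are counted without being named or described. Members, lists (34 with 535 symbols, 452 tested) and rules were chosen with earlier results of these data known. The fit was tested on simulated data. The columns of the authors' own comparisons in their supplementary tables were not used. Operated and opposite arrays of the same pool come from the same rats, and their deviations from the group means correlated at 0.506, 0.418, 0.107 and 0.173 in pools 5 to 8. The highest correlation with the opposite cortex of another pool was 0.052, 0.344, 0.183 and 0.534, above that of the same rats in pools 7 and 8.

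Alternatives were 75th percentile scaling, normexp on spot medians (offset 50), the authors' own normalized values, no or a stricter filter, 8 or 20 arrays only, slide or pool as a block, array weights, all spots kept, no fold minimum, the mean of a gene's probes or of both sham times, and each array left out. Chosen after seeing the data were the scan set as a block, within each scan set, with pool 8 left out, and the pool as a random effect for the operated minus opposite comparison (statmod 1.5.0). The R package data.table (version 1.17.8) read the files.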

Additional observations from a re-analysis of the deposited data

Results flagged for a closer look

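For 4 of 196 groups of 4 arrays (98 probes in sham and healthy cortex), the highest or lowest array stood apart from the others, which is 2.04% where chance gives about 1 in 20. For Gfap, the probe of highest signal, healthy pool 17 was at 7.96 and the next healthy array at 8.48, a gap of 0.952 of the group's range. For Lgals3, healthy pool 20 was at 7.63 and the next at 7.78, a gap of 0.836 of the range. For Olig2, sham pool 8 was at 5.41 and the next sham pool at 4.29, a gap of 0.910 of the range. For Uspl1, sham pool 8 was at 2.59 and the next at 0.77, a gap of 0.960, and this gene was well above background on 1 of 4 arrays in each group. The share of spots well above background in sham pool 8, 77.7%, stood apart from the other sham pools by 0.842 of the range.

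The operated minus the opposite cortex of the sham rats differed for 1 probe without a gene name, A_44_P290976, by -2.64 (adjusted p = 0.00283 in limma), the opposite cortex being higher. With the pool as a fixed block, fitted over only the sham arrays of 24 h, 0 probes were called. That fit holds few arrays, so a lack of calls in it says little about this probe. The pool as a random effect over all arrays called 2 probes. Without pool 5 or pool 6, 0 were called, without pool 7 there were 4 and without pool 8 there were 6.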

How the results depend on the processing

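With 4 pools per group and a wide spread between sham pools, calls depended on single arrays, and signals near background bound several chemokine values. No other setting gave more than 1 called probe in sham against healthy cortex except array weights (2323 called, 12448 at an unadjusted p below 0.05), which gave sham pool 8 a weight of 0.496 and healthy pool 18 one of 3.21, leaving out pool 8 (1368), and the scan set as a block without pool 8 (1699). Scaling to the 75th percentile called 1 probe, moved the median of all probes from -0.01 to 0.14 and the share of higher probes among those at an unadjusted p below 0.05 from 42.3% to 58.0%. The slide as a fixed block gave a share of 50.4%. Probes at an unadjusted p below 0.05 numbered 3992 with normexp (15242 probes tested), 2973 with the mean of a gene's probes (12097 genes tested), 3180 for the mean of both sham times and 6895 with the pool as a random block, with 0 called. Leaving out each array gave 0 to 1368 called and 3389 (without pool 5) to 8474.

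For the operated minus the opposite side, the replicate block gave 0 called and 1018 at an unadjusted p below 0.05 (fixed) or 2 and 873 (random), and leaving out each pool 0 to 6 called (4 without pool 7, 6 without pool 8) and 544 to 682. For 24 h minus 3 d, leaving out each array gave 0 to 2 called (2 without pool 13) and 983 (without pool 5) to 5503 (without pool 8) at an unadjusted p below 0.05, also 1542, 1775, 4650 and 1154 without pools 7, 13, 15 and 16.

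Over 2211 values of the named probes under these settings, 2035 kept their sign and side of the threshold, 165 kept their sign and became called, and 11 changed sign, all of Ttr. These were 0.30 with 75th percentile scaling, 0.81 with normexp, and 0.55 and 0.10 with slide as a fixed and a random block. They were also 0.25 with the scan set as a block, 0.24 with that block and without pool 8, and the values without pool 5, 7, 8, 17 or 18. With an array left out Ttr ran from -2.22 to 1.52, and the lowest of these values kept its sign. The Ttr value rests on sham pool 6. Normexp moved 33 of 84 named probes by over 1.5-fold and the mean of both sham times 24 of 98, and no other setting moved more than 10. The causes were not tested.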
